A study of Homo sapiens with 6 samples.

Results

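The genes of fatty acid and triglyceride synthesis and turnover were followed in MDA-MB-231, an established line of human breast cancer cells that lack hormone receptors and amplified HER2, with and without EC-70124, a multi-kinase inhibitor. The list holds 48 genes, matched by symbol in the array annotation, and 45 of them were measured among 18417 genes in all. ACSL3 and AGPAT3 were not analysed here, and the probe sets of AGPAT1 also carry the symbol of another gene and were left out. The study compared 3 untreated samples with 3 samples that received EC-70124 at 500 nM over 24 h, all grown in DMEM with 10% FBS, and hybridised 1 Human Gene ST array per sample. The methods call the samples independent and name no vehicle for the untreated cells. All 6 arrays come from this single cell line at a single dose and time. In such bulk RNA a change in all cells and a change in the share of some cells cannot be told apart.

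In the cytosol, ATP citrate lyase and acetyl-CoA synthetase supply acetyl-CoA, acetyl-CoA carboxylase turns it into malonyl-CoA, and fatty acid synthase builds palmitate from both. Elongases and desaturases lengthen and unsaturate the chain, acyl-CoA synthetases activate it, and acyltransferases, lipins and DGAT enzymes place it on glycerol to make triglyceride, which is stored in droplets coated by perilipins. Lipases release the fatty acid again, and the carnitine shuttle carries it into mitochondria for oxidation. Many of the synthesis genes are textbook targets of the SREBP transcription factors, and tumor cells are known for making much of their own fatty acid.

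The authors deposited 1 intensity per probe set, on a linear scale and normalized across arrays. The median intensity of an array was 437 to 444 in untreated cells and 451 to 460.1 in treated cells, and Pearson's r of log2 values across probe sets was 0.99 to 0.993 within a group and 0.979 to 0.984 between groups. Without EC-70124 replicate 3 the test called 6835 genes, against 6353 with all arrays and 5172 to 5580 without any other array. Over all 18417 genes 14.8% fell and 19.7% rose at an adjusted p under 0.05 from limma. Marker genes were called in the same way. Of 7 markers that this line expresses 4 fell (median log2 fold change of the 7 -0.27), among them MSN (-0.66) and EGFR (-0.39), and the mesenchymal marker VIM, with an untreated mean intensity of 13827, did not pass. The markers' part in the results was not tested. Of 8 breast luminal and receptor markers 1 fell (KRT19, log2 fold change -0.49) and 2 rose (GATA3, 0.46, and CDH1, 0.19). Among these 8 the hormone receptor genes ESR1 and PGR had untreated means of 225 and 166. KRT19 had an untreated mean of 3808, ERBB2 of 1486 and FOXA1 of 893. Of 8 adipocyte markers 0 passed the limma test (1 at an unadjusted p under 0.05), and their summed intensity was 2627 to 2707 untreated and 2547 to 2652 treated. Of 7 hepatocyte markers 1 fell (SERPINA1, log2 fold change -0.23), with summed intensities of 2415 to 2610 and 2324 to 2506. Of 9 leukocyte and endothelial markers 1 fell (CD68, log2 fold change -0.33), with summed intensities of 11507 to 12027 and 8991 to 10446. Most of these sums is CD68, with means of 9042 untreated and 7210 treated. The samples are of a single cultured line, and the source of the CD68 signal was not tested.

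More of these genes fell than rose after EC-70124. The falls covered synthesis, desaturation, lipid assembly and lipolysis, with the lipase gene LIPG, the desaturase gene SCD, the lipase gene MGLL and the acetyltransferase gene CRAT each reduced more than 2-fold (CRAT by less than that without EC-70124 replicate 3). The 4 listed genes of the beta-oxidation cycle (ACADM, ACADVL, HADHA and HADHB) had log2 fold changes between -0.01 and 0.07 and did not pass the test. Outside the list, 5 of 21 further oxidation genes fell and 6 rose. Of the 45 measured genes, 22 fell and 3 rose at an adjusted p under 0.05 from limma, adjusted over all genes, and 20 did not pass. Over all 18417 genes 34.5% passed, 14.8% as falls (2722 genes) and 19.7% as rises (3631 genes), whereas 48.9% of the measured list fell and 6.67% rose. After quantile normalization the split over all genes was 3527 falls and 3112 rises, and that of the list 25 falls and 3 rises. Treated and untreated arrays did not overlap for 24 genes of the list that were lower and 3 that were higher, against 22% and 25.6% of all genes. The median log2 fold change was -0.16 over the list and -0.00 over all genes.

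**Figure D1:**
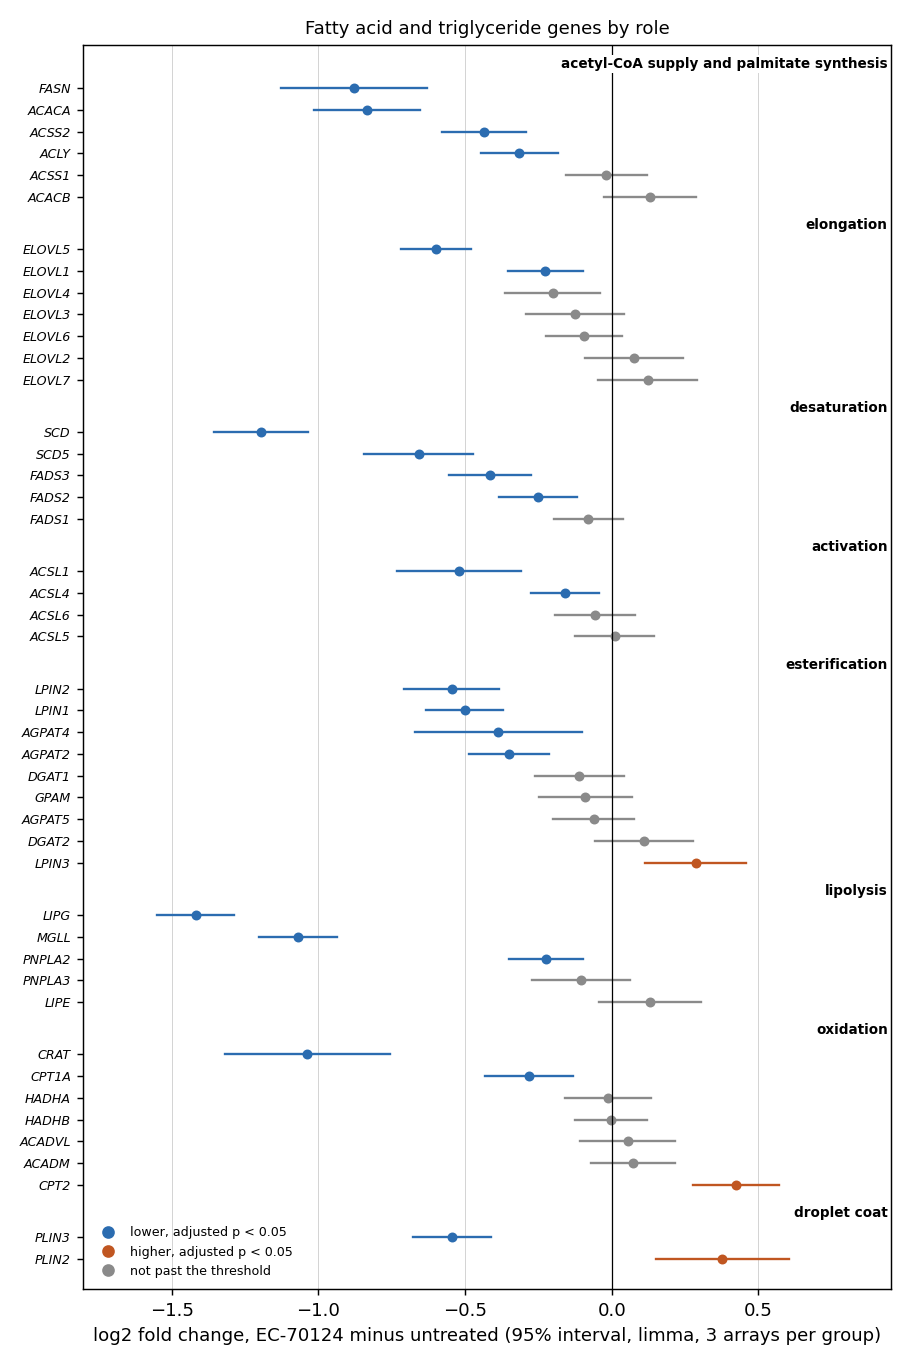
Log2 fold change of the 45 measured genes (EC-70124 minus untreated, x axis, point) with its 95% interval from limma (line, 3 arrays per group), grouped by role (y axis). Blue and orange mark falls and rises at an adjusted p under 0.05 and gray marks genes that did not pass, with values running from -1.42 for LIPG to 0.42 for CPT2.

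By role, 4 of 6 genes of acetyl-CoA supply and palmitate synthesis fell, with a median log2 fold change of -0.37 over the role. The 5 desaturases had 4 falls and a median of -0.41, and the 7 elongases 2 falls and -0.13. Of the 4 acyl-CoA synthetases measured 2 fell (median -0.11), and of 9 esterification genes 4 fell and 1 rose (median -0.11). The 5 lipases had 3 falls (median -0.22), the 7 oxidation genes 2 falls and 1 rise (median -0.00), and the droplet coat genes 1 fall and 1 rise. Taking the first 5 of these roles as the synthesis side, 16 of 31 genes fell and 1 rose, and of the 12 genes of lipolysis and oxidation 5 fell and 1 rose. The difference between roles was not tested, since each role holds few genes.

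**Figure D2:**
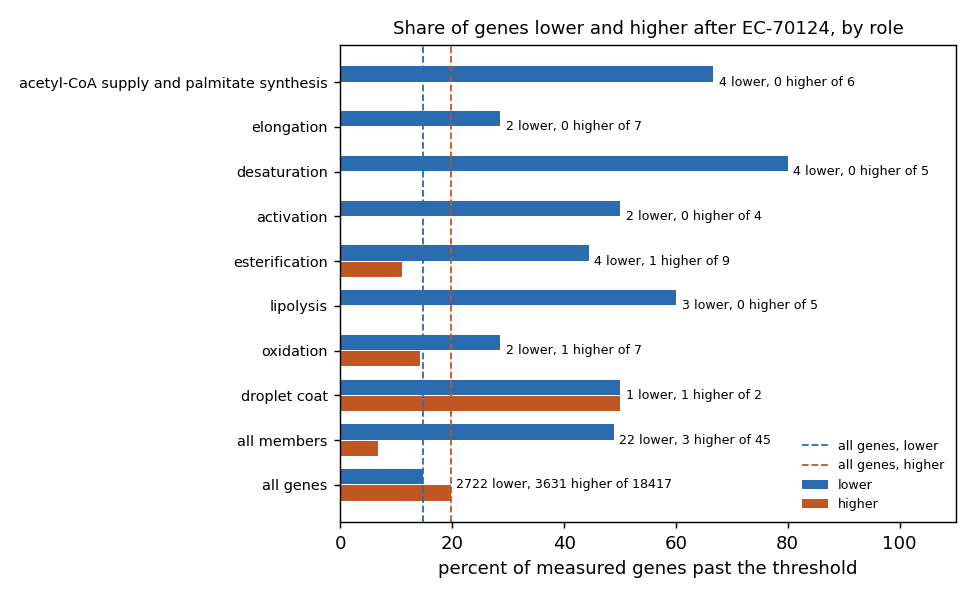
Percent of the measured genes of each role that fell (blue bars) or rose (orange bars) at an adjusted p under 0.05 from limma (x axis), with the counts beside the bars. Dashed lines give the shares over all 18417 genes, 14.8% falls and 19.7% rises, and the share of falls lies above its line in every role, from 28.6% of elongation and oxidation genes to 80% of desaturases.

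In the first steps of synthesis, genes of the cytosolic route fell. FASN, the fatty acid synthase (probe set 8019392), had intensities of 3323, 3535 and 3447 in untreated arrays and 1698, 1708 and 2244 in treated arrays (log2 fold change -0.88, standard error 0.11, adjusted p = 0.000421 from limma). ACACA, the cytosolic acetyl-CoA carboxylase that sets the rate of the pathway, had 2127, 2131 and 2074 untreated and 1111, 1119.9 and 1331 treated (log2 fold change -0.84, standard error 0.08, adjusted p = 0.000108 from limma). For both genes the groups were far apart, and treated replicate 3 was the highest of the treated arrays. Without EC-70124 replicate 3 the log2 fold changes were -1.01 for FASN and -0.92 for ACACA. Both calls were lost with a t-test of each gene alone (adjusted p = 0.0773 and 0.0508), which does not pool the spread across genes as limma does. ACSS2, which makes acetyl-CoA from acetate in cytosol and nucleus, went from 2084, 2112 and 2089 to 1597, 1621 and 1438 (log2 fold change -0.44). The call of ACSS2 was also lost with that t-test (adjusted p = 0.0658). ACLY, which cleaves exported citrate, went from 8097, 8258 and 8459 to 6446, 6542 and 6972 (log2 fold change -0.31, adjusted p = 0.00303 from limma). Neither pair of groups overlapped. The mitochondrial relatives did not pass the test. ACACB, whose malonyl-CoA restrains the carnitine shuttle, had 487, 524 and 462 untreated and 551, 507 and 552 treated, a log2 fold change of 0.13 with a 95% interval of -0.03 to 0.29. ACSS1, the mitochondrial acetyl-CoA synthetase, was dim, with 256, 232 and 253 untreated and 249, 244 and 238 treated, and its interval was -0.16 to 0.12. In both genes the arrays of the groups overlapped.

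The desaturases insert double bonds, SCD and SCD5 at the delta-9 position and FADS1 and FADS2 in polyunsaturated chains. SCD (probe set 7929816) had the largest fall of the synthesis side, from intensities of 5803, 5823 and 5791 to 2326, 2558 and 2745. Its untreated arrays differed little and all treated arrays lay far below them, 2.29-fold lower on average (-1.19 on the log2 scale, standard error 0.07, adjusted p = 1.3e-05 from limma). SCD5, its relative that is known from brain, went from 2275, 2443 and 2284 to 1318, 1584 and 1548 (log2 fold change -0.66, standard error 0.08, adjusted p = 0.000418 from limma). FADS3 went from 3211, 3198 and 3298 to 2427, 2573 and 2291 (log2 fold change -0.41), and FADS2, the delta-6 desaturase, from 7388, 7700.4 and 7913 to 6205, 6418 and 6700.3 (log2 fold change -0.25). The groups of all 4 genes were apart. FADS1, the delta-5 desaturase, had 5691, 5525 and 5471 untreated and 5223, 5333 and 5228 treated. Its groups did not overlap either, but the difference of -0.08 on the log2 scale did not pass (adjusted p = 0.280 from limma, 95% interval -0.20 to 0.04).

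Upstream sequence is shown for 6 genes of the list, chosen after their values were seen, because most genes of the list that changed did so in 1 direction, and these 6 include falls of different size and a rise. The windows are the 250 bases before the annotated start in RefSeq on GRCh38.p14, 5′ to 3′ on the strand of the gene. They lie at chr10:100346983-100347232 (plus strand) for SCD, chr4:82798797-82799046 (minus strand) for SCD5, chr6:53348951-53349200 (minus strand) for ELOVL5, chr18:49561807-49562056 (plus strand) for LIPG, chr11:818664-818913 (plus strand) for PNPLA2 and chr9:19127493-19127742 (minus strand) for PLIN2. Capitals mark matches, on either strand, to CCAAT (the box bound by NF-Y), GGGCGG (the GC box), CACGTG (the E-box) and TCACNCCAC (a form of the sterol regulatory element).
SCD: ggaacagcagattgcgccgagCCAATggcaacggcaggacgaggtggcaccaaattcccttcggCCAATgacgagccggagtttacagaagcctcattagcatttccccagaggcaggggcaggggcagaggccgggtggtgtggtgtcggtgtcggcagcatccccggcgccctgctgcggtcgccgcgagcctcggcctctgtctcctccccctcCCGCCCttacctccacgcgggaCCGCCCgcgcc
SCD5: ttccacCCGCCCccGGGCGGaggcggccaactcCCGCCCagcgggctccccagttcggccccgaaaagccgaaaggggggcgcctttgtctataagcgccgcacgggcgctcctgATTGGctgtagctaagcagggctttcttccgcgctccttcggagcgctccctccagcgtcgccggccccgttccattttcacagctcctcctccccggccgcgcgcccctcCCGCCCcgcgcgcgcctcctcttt
ELOVL5: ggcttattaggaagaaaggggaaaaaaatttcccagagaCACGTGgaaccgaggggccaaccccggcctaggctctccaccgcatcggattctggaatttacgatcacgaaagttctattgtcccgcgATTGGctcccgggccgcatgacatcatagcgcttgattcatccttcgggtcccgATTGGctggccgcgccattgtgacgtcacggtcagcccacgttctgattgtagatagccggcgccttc
LIPG: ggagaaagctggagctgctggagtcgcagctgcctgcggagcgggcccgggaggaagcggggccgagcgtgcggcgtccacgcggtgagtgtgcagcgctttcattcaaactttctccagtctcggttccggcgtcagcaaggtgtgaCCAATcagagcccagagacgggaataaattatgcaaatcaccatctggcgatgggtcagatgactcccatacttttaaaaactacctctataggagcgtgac
PNPLA2: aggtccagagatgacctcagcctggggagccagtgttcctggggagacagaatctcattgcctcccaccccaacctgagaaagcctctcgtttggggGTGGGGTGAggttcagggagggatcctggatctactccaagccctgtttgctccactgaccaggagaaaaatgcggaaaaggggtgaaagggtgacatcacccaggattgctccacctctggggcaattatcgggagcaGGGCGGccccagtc
PLIN2: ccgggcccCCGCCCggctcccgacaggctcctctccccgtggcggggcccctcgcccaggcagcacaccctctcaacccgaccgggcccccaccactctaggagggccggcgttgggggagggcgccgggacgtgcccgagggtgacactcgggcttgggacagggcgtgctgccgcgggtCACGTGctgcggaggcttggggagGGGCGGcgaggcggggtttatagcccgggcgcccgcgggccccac
The SCD window holds CCAAT at 2 places, 229 and 186 bases before the start as counted from the first base of the match, and the ELOVL5 window holds its reverse complement at 122 and 68. SCD5 and LIPG have 1 such match each. Of the 6 genes only PNPLA2 has a match to TCACNCCAC in its window, and ELOVL5 and PLIN2 have the E-box. Promoter windows were found for 40 of the 48 genes, 68 windows in all, since a gene can have several starts, and not for FASN, MGLL and CRAT among others. CCAAT is held by 14 of the 31 windows of genes that fell (45.2%), by 5 of the 27 of genes that did not pass (18.5%) and by 32% of all 35116 windows. Over the 68 windows of the list CCAAT is held by 24 (35.3%), and by 0 of the 2 windows of genes that rose. The 68 windows include those of ACSL3, AGPAT1 and AGPAT3, which were not tested for a change. TCACNCCAC is held by 3 of the 68 windows (4.41%) and 0.883% of all windows, CACGTG by 4 (5.88%) and 6.34%, and GGGCGG by 44 (64.7%) and 42.6%. For genes that fell against genes that did not pass, TCACNCCAC had 6.45% and 3.7%, CACGTG 6.45% and 3.7%, and GGGCGG 64.5% and 63%. The windows of a gene can overlap each other, the shares were not tested, and a match gives the letters only.

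Among the elongases ELOVL5, which lengthens polyunsaturated chains, had the largest fall, from 7027, 6962 and 7097 to 4546, 4788 and 4592 (log2 fold change -0.60, standard error 0.05, adjusted p = 7.6e-05 from limma). ELOVL1, an elongase of very long saturated chains, went from 6143, 6435 and 5987 to 5200.2, 5242 and 5422 (log2 fold change -0.23, adjusted p = 0.0133 from limma). Without untreated replicate 2 the adjusted p of ELOVL1 was 0.0553. ELOVL6, the elongase of palmitate, was at -0.09 on the log2 scale with overlapping groups (adjusted p = 0.250 from limma, interval -0.22 to 0.04). ELOVL4, at intensities of 174 to 221, had -0.20 and missed the threshold (adjusted p = 0.0581 from limma). The others, ELOVL2, ELOVL3 and ELOVL7, lay between -0.13 and 0.12, and their groups overlapped.

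Fatty acids are activated by long-chain acyl-CoA synthetases. ACSL1 went from 1466, 1477 and 1398 to 935, 938 and 1169 (log2 fold change -0.52, standard error 0.09, adjusted p = 0.00279 from limma), with treated replicate 3 again the highest of the treated arrays. The call of ACSL1 was lost with the t-test of each gene alone (adjusted p = 0.110). ACSL4, which prefers arachidonate, went from 4344, 4357 and 4466 to 3975, 3947 and 3867, which was -0.16 on the log2 scale and close to the threshold (adjusted p = 0.0410 from limma). The call of ACSL4 was lost without any 1 of the 6 arrays, with adjusted p between 0.0527 and 0.113. ACSL5 (0.01, interval -0.12 to 0.14) and the dim ACSL6 (-0.06) did not pass.

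Of the enzymes that assemble triglyceride, the lipins fell and rose by isoform. These phosphatases turn phosphatidate into diacylglycerol. LPIN1 went from 3119, 3354 and 3195 to 2298, 2329 and 2203 (log2 fold change -0.50, standard error 0.06, adjusted p = 0.000269 from limma), and LPIN2 from 3113, 3043 and 2968 to 2198, 2171 and 1896 (log2 fold change -0.55, standard error 0.07, adjusted p = 0.000545 from limma). LPIN3 rose, from 428, 498 and 443 to 586, 555 and 526 (log2 fold change 0.29, adjusted p = 0.0184 from limma), with a small gap between the groups. Its call was lost without untreated replicate 1 or 3 and without EC-70124 replicate 1 or 2, with adjusted p from 0.0526 to 0.0761. AGPAT2 and AGPAT4 add the acyl chain of the middle position to lysophosphatidate. AGPAT2 went from 2389, 2354 and 2442 to 1798, 1992 and 1851 (log2 fold change -0.35, adjusted p = 0.00223 from limma). AGPAT4 went from 794, 889.5 and 755 to 703, 668 and 509, and its value of -0.39 on the log2 scale (standard error 0.12, adjusted p = 0.0428 from limma) was -0.24 without EC-70124 replicate 3 (adjusted p = 0.0521 from limma). Leaving out EC-70124 replicate 2 or any untreated replicate also ended that call, with adjusted p from 0.0543 to 0.139. The t-test of each gene alone ended the calls of LPIN2, LPIN3, AGPAT2 and AGPAT4 (adjusted p from 0.0512 to 0.226). The groups of AGPAT4 lay close together and EC-70124 replicate 3 was the lowest array. The listed genes at the start (GPAM) and end (DGAT1 and DGAT2) of the route did not pass, and neither did AGPAT5. Outside the list GPAT3, also a glycerol phosphate acyltransferase, fell (log2 fold change -0.65). GPAM, the mitochondrial glycerol phosphate acyltransferase, had -0.09, AGPAT5 had -0.06, DGAT1 had -0.11 and DGAT2 had 0.11. DGAT1, which completes triglyceride, had 2273, 2472 and 2296 untreated and 2204, 2284 and 2037 treated, and DGAT2, which does so mainly from newly made fatty acid, had 1085, 1010.2 and 1055 untreated and 1213, 1034 and 1161 treated, with overlapping groups in both. DGAT1 is listed on a second probe set with identical values, counted as 1.

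LIPG (probe set 8021169) had the largest change of the list. The gene of the endothelial lipase, which is secreted and acts on lipoprotein phospholipids, went from 1534, 1677 and 1571 to 588, 595 and 606. The treated arrays were close to each other and far below the untreated arrays (log2 fold change -1.42, standard error 0.06, adjusted p = 3.8e-06 from limma). The study selected LIPG, and also MGLL and CRAT, for a list of changed genes with these arrays in hand, and the direction of these 3 is therefore no independent evidence. MGLL (probe set 8090433), which hydrolyses monoacylglycerol including the endocannabinoid 2-AG, went from 2848, 2909.6 and 2683 to 1346, 1376 and 1299 (log2 fold change -1.07, standard error 0.06, adjusted p = 9.6e-06 from limma). PNPLA2, the adipose triglyceride lipase that starts droplet lipolysis, went from 5600.4, 5895 and 6057 to 4992, 5050.4 and 4984, a smaller fall by 0.22 on the log2 scale (adjusted p = 0.0134 from limma). All 3 were apart between groups. PNPLA3 (480.0, 511 and 489.7 untreated, 504, 444 and 432 treated) and the hormone-sensitive lipase LIPE (log2 fold change 0.13) did not pass and their groups overlapped.

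In mitochondrial oxidation the carnitine enzymes changed in different directions, and the 4 listed enzymes of the beta-oxidation cycle did not pass. CRAT (probe set 8164535), the acetyltransferase that exchanges acetyl groups between CoA and carnitine, went from 2034, 2205 and 2039.9 to 1103, 1163 and 826 (log2 fold change -1.04, standard error 0.12, adjusted p = 0.000349 from limma). CPT1A, the gatekeeper of the outer membrane, went from 1624, 1594 and 1455 to 1274, 1339 and 1229 (log2 fold change -0.28, adjusted p = 0.0104 from limma). CPT2, its partner at the inner membrane, rose from 1135, 1174 and 1035 to 1459, 1528 and 1489 (log2 fold change 0.42, standard error 0.06, adjusted p = 0.00125 from limma). In all 3 genes the groups were apart, and in CRAT EC-70124 replicate 3 was the lowest array. Without it the log2 fold change of CRAT was -0.88, under 2-fold. With the t-test of each gene alone all 3 calls were lost (adjusted p = 0.0717 for CRAT, 0.0585 for CPT1A and 0.0523 for CPT2). ACADM and ACADVL, the medium and very long chain acyl-CoA dehydrogenases, had log2 fold changes of 0.07 and 0.05. HADHA and HADHB, the subunits of the trifunctional protein, had -0.01 and -0.00. The 95% intervals of these 4 genes ran from -0.16 to 0.22 at the widest, and their groups overlapped.

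The 2 droplet coat genes moved apart. PLIN2, the perilipin that covers droplets in most cells, rose from 3027, 3091 and 2669 to 4009.5, 4123 and 3306 (log2 fold change 0.38, standard error 0.10, adjusted p = 0.0179 from limma). The lowest treated array, replicate 3, was above the highest untreated array. The call was lost without untreated replicate 3 or EC-70124 replicate 1 or 2, with adjusted p of 0.0635, 0.0581 and 0.0642. It was also lost with the t-test of each gene alone (adjusted p = 0.128). PLIN3, which moves between cytosol and small droplets, fell from 5520.4, 5675 and 5895 to 3818, 4089 and 3816 (log2 fold change -0.54, standard error 0.06, adjusted p = 0.000201 from limma).

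**Figure D3:**
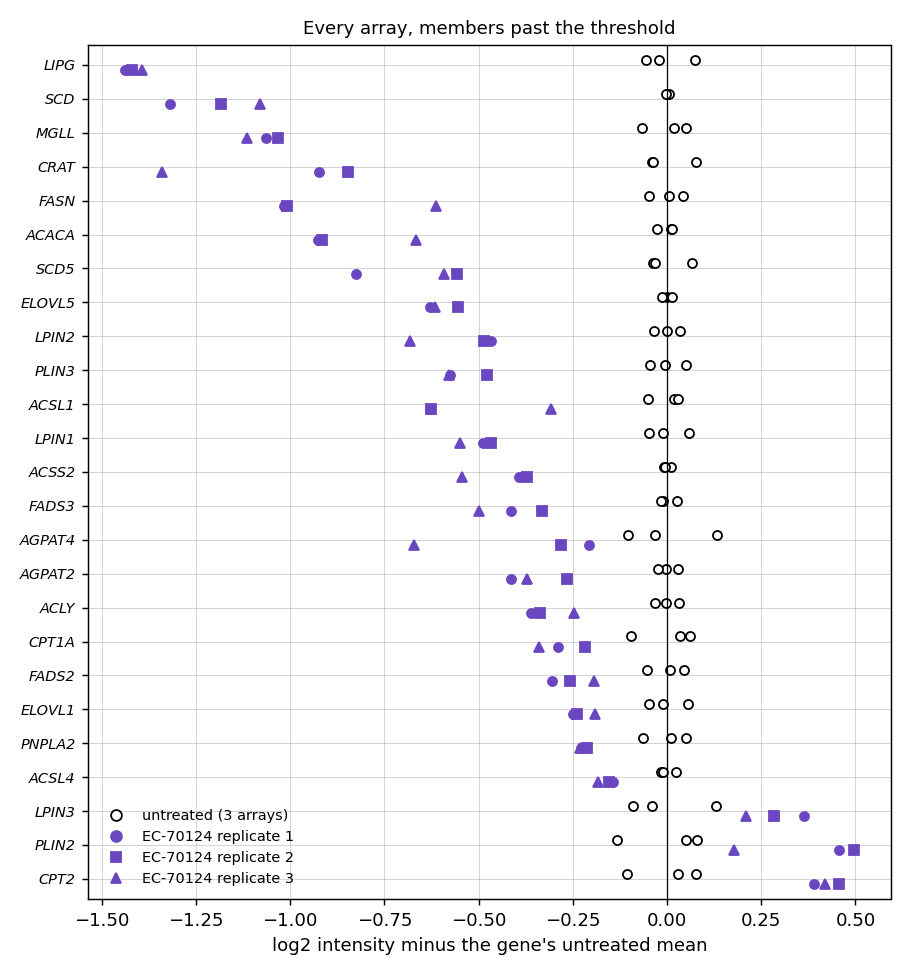
Log2 intensity of each array minus the mean of the untreated arrays of that gene (x axis) for the 25 genes past the threshold (y axis), with open circles for the 3 untreated arrays and filled symbols for EC-70124 replicates 1, 2 and 3. For every gene drawn the filled symbols lie on 1 side of the open circles, and EC-70124 replicate 3 lies apart from the other treated arrays for FASN, ACACA, ACSL1, CRAT, AGPAT4 and PLIN2, in both directions.

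Related enzymes were then set against each other within each array, as the log2 ratio of 2 genes, for 8 pairs. The treated minus untreated mean of this ratio was -0.96 for ACACA to ACACB, -0.54 for SCD to SCD5, -0.42 for ACSS2 to ACSS1 and -0.17 for FADS2 to FADS1. For FASN to CPT1A, of synthesis to mitochondrial entry, it was -0.60, with treated values of 0.41, 0.35 and 0.87 against 1.03, 1.15 and 1.24 untreated. In these 5 pairs the groups did not overlap, and the exact permutation test (2-sided) gave p = 0.1, the smallest that 3 against 3 arrays allow, with an adjusted p of 0.16 over the 8 pairs. The ratios of DGAT2 to DGAT1 (change 0.22, exact p = 0.3), PNPLA3 to PNPLA2 (0.12, exact p = 0.2) and LPIN1 to LPIN2 (0.04, exact p = 0.6) overlapped between groups. No pair could pass the threshold at this size.

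**Figure D4:**
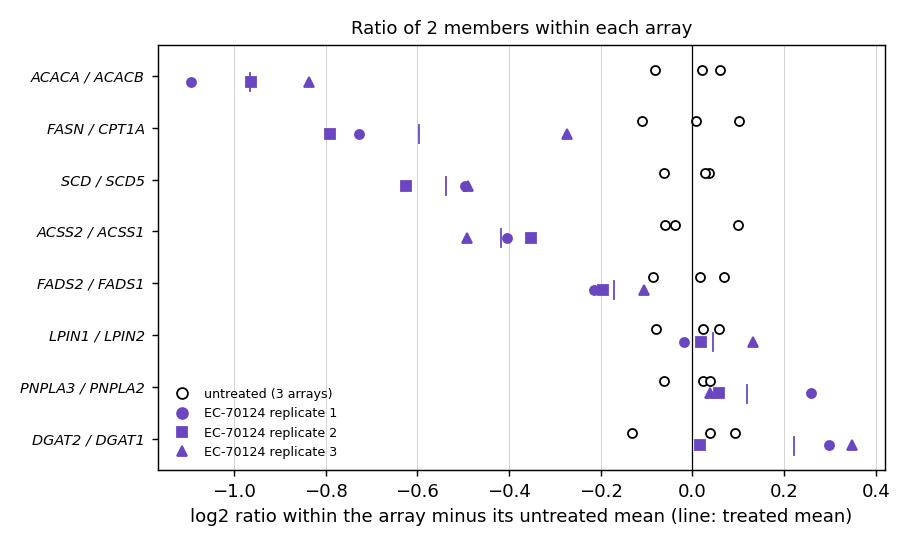
Log2 ratio of 2 genes within each array minus its untreated mean (x axis) for 8 pairs of genes (y axis), with open circles for the untreated arrays, filled symbols for the 3 EC-70124 arrays and a line at their mean. The means run from -0.96 for ACACA to ACACB to 0.22 for DGAT2 to DGAT1.

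Genes that control lipid metabolism, in synthesis or oxidation, changed in both directions. Of 19 measured, 7 fell and 4 rose (median log2 fold change -0.11), against 14.8% falls and 19.7% rises over all genes. SREBF2, the SREBP gene tied mainly to cholesterol, went from 3348, 3629.8 and 3328 to 1959, 2213 and 1941 (log2 fold change -0.76, standard error 0.07, adjusted p = 0.000112 from limma). SREBF1, tied mainly to fatty acid synthesis, had 1554, 1718 and 1341 untreated and 1846, 1655 and 1567 treated, with overlapping groups and 0.14 on the log2 scale (adjusted p = 0.344 from limma, interval -0.09 to 0.37). INSIG1, which holds SREBP in the endoplasmic reticulum and is itself a target of SREBP, had 3008, 3024 and 3074 untreated and 822, 907 and 938 treated (log2 fold change -1.77, adjusted p = 2.9e-06 from limma), with all treated arrays far below the untreated ones. INSIG1 and PPARA are also on the study's list of genes selected on these samples. The escort protein gene SCAP had a log2 fold change of -0.05 (interval -0.20 to 0.09). Among nuclear receptors of lipid metabolism, PPARA fell from 1476, 1659 and 1456 to 699, 809 and 795 (1.99-fold lower), and PPARG from 4844, 4769.8 and 4900.1 to 2913, 3038 and 2634 (log2 fold change -0.76). PPARGC1A, a coactivator of mitochondrial genes, rose from 362, 439 and 361 to 831, 759.7 and 639.8 (log2 fold change 0.94, standard error 0.11, adjusted p = 0.000394 from limma). The groups of these 3 genes did not overlap. PPARGC1B, the relative of PPARGC1A, fell (log2 fold change -0.30, adjusted p = 0.00215 from limma).

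**Figure D5:**
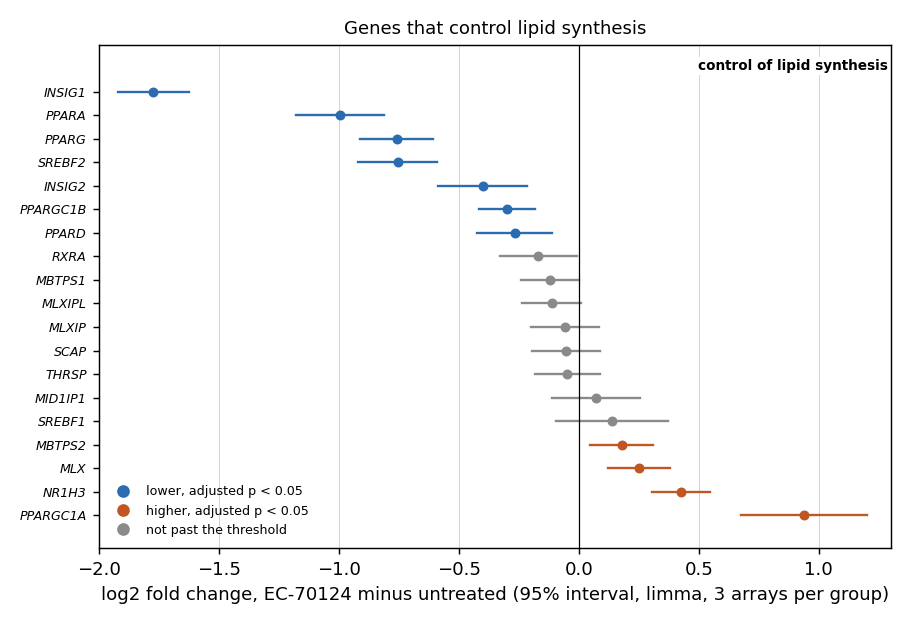
Log2 fold change (x axis, point) with its 95% interval from limma (line, 3 arrays per group) of 19 genes that control lipid metabolism (y axis). Blue marks the 7 that fell, orange the 4 that rose and gray those that did not pass, and the values run from -1.77 for INSIG1 to 0.94 for PPARGC1A.

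Of 21 further oxidation genes, 5 fell and 6 rose (median log2 fold change 0.06), where 14.8% of all genes fell and 19.7% rose. In either direction 11 of 21 passed, where 34.5% of all genes did. ACAD9, an acyl-CoA dehydrogenase that also assembles respiratory complex I, rose from 1848, 1966 and 1719.9 to 2895, 2812 and 2883 (log2 fold change 0.64), and ACAA1, a peroxisomal thiolase, rose by 0.60. HADH, the short chain hydroxyacyl-CoA dehydrogenase, fell by 0.61 on the log2 scale and the isomerase gene ECI2 by 0.61. Of 20 further droplet, lipase and triglyceride genes, 4 fell and 1 rose (median -0.06), so that 5 of 20 passed where 34.5% of all genes did. GPAT3, a glycerol phosphate acyltransferase of the endoplasmic reticulum, went from 2887, 3107 and 3137 to 1917, 1919 and 1965 (log2 fold change -0.65, adjusted p = 7.5e-05 from limma), whereas GPAM above did not pass. LIPA, the lysosomal acid lipase, fell by 0.63 and HILPDA, a droplet protein that inhibits PNPLA2, by 0.37 on the log2 scale, and PNPLA4 rose by 0.33.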

How the data were processed

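The 3 untreated and 3 EC-70124-treated arrays were grouped by their sample labels. Per the methods, the authors used dChip for rank-invariant normalization and deposited 1 model-based intensity per probe set on a linear scale, with no measure of background, so that dim genes (ACSS1, ELOVL2, ELOVL4 and ACSL6 among the 30% dimmest) could not be separated from it. Here values under 1 were raised to 1 before log2. Of 33252 probe sets, 19460 carry 1 symbol in the platform annotation, 1754 several and 12038 none, and the brightest single-symbol probe set represented each gene. The test was limma's moderated fit (version 3.58.1, lmFit and eBayes, R 4.3.3) with Benjamini-Hochberg adjustment over 18417 genes at 0.05, 2-sided. Intervals are at 95%. The number of arrays limits the precision (median standard error 0.07). All listed genes could be named, with values per array for those past the threshold (at most 5 a role) and for the pairs. From each further list the 4 largest changes past the threshold were named, plus SREBF1, SREBF2, SCAP, INSIG1 and, beside PPARGC1A, PPARGC1B. The genes and lists were chosen with earlier results of these data known. In simulated data for this comparison (18417 genes), 100 genes were changed 1.5-fold and 100 were changed 2-fold. Of these 82% and 95% were recovered, with 8 unchanged genes called. In the data a far larger share of genes passed (34.5%), so these rates need not carry over. Of the 25 listed genes that passed, 8 changed at least 1.5-fold, and the rates do not cover smaller changes. The simulated noise was drawn independently for each gene and array. The alternatives were quantile and cyclic loess normalization, an offset of 50, removal of the 30% dimmest genes, the median over probe sets, an intensity trend with robust variance, a t-test with unequal variances (the methods name a t-test only as the metric of their gene set analysis), a replicate block and leaving out each array.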

Additional observations from a re-analysis of the deposited data

How the results depend on the processing

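Of the 25 genes past the threshold, 9 falls (ACLY, ELOVL5, SCD, SCD5, FADS2, LPIN1, MGLL, LIPG and PLIN3) were called the same way under all 14 alternatives, and 19 of the 22 falls (not ELOVL1, ACSL4 and AGPAT4) and 1 rise (CPT2) under all except a t-test. No call changed sign. A t-test with unequal variances and Benjamini-Hochberg adjustment, which estimates the spread of each gene alone, gave 3242 genes past the threshold in all (1280 lower and 1962 higher), and 11 falls and 0 rises in the list, where 3 rises passed with limma (3 rises at an unadjusted p under 0.05 by that t-test). Without each array in turn the list had 20 to 21 falls and 1 to 3 rises. It had 1 rise without untreated replicate 3, EC-70124 replicate 1 or EC-70124 replicate 2. Quantile normalization moved the medians by role to -0.41 (acetyl-CoA supply and palmitate synthesis), -0.48 (desaturation), -0.14 (activation) and -0.18 (esterification), and added falls of ELOVL4, ELOVL6 and DGAT1. The first was -0.41 with cyclic loess and -0.44 without the dimmest genes, and activation was -0.16 without them, where ACSS1 and ACSL6 are left out. The median of all genes moved by under 0.1 under each. The change of the LPIN1 to LPIN2 ratio ran from -0.000671 (without EC-70124 replicate 3) to 0.0755 when single arrays were left out. With the replicate number as a block, 22 members fell, 3 rose and 6183 genes passed. The deviations of same-numbered arrays from their group means correlated at 0.127, -0.0225 and 0.136 across genes. Arrays of different number gave -0.218 to 0.149, and not every array correlated best with its own number. With 3 arrays per group these values cannot decide whether same-numbered arrays were paired. The block ended the call of ACSL4 (adjusted p = 0.0794 from limma) and added ELOVL4.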

Other observations

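Genes around the list were described in the same way. Of 14 measured genes of fatty acid uptake and binding, 4 fell and 1 rose (median log2 fold change 0.00), so that 5 of 14 passed where 34.5% of all genes did, a share near that background. VLDLR, a receptor for triglyceride-rich lipoproteins, went from intensities of 1574, 1579 and 1485 to 899, 891 and 714 (log2 fold change -0.90, standard error 0.09, adjusted p = 0.000183 from limma), and the fatty acid transport gene SLC27A1 from 777, 803 and 761 to 467, 498 and 409 (log2 fold change -0.77). The groups of both genes were apart. FABP6, a bile acid binding protein, fell by 0.62 on the log2 scale, and SLC27A2 rose by 0.34 at low intensities of 167 to 241. The other 9 did not pass.

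Of 13 measured genes of the elongation cycle, citrate export and NADPH supply, 5 fell and 0 rose with limma (0 rises at an unadjusted p under 0.05), against 14.8% and 19.7% of all genes, and the median log2 fold change was -0.12. SLC25A1, the carrier that exports citrate for ACLY, went from 3449.8, 3694 and 3383 to 2464, 2393 and 2323 (log2 fold change -0.55, standard error 0.06, adjusted p = 0.000205 from limma). PC, the pyruvate carboxylase, fell by 0.51 on the log2 scale, HACD3 by 0.30 and the transketolase gene TKT by 0.26.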
